A study of Rattus norvegicus with 6 samples.

Results

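Fhit and 6 other genes tied to tumours of the kidney or to large fragile genes (Wwox, Vhl, Tsc1, Tsc2, Flcn and Met) were followed in the renal cortex of rats given the herbicide monuron. The genes were found through the accession that the array design gives for each probe, matched to RefSeq symbols: 7 genes of the 15645 symbols that could be named, with 14 of the 61537 non-control probes. Fhit was picked because its signal was already known to be lower with monuron on these same arrays, and the other 6 for their link to tumours, with the results for the series also known. The values of the 7 genes are therefore a description and carry no p-value.

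The animals were male Sprague-Dawley rats (Crl:CD(SD)), bought at an age of 5 weeks and fed a basal diet. One group had monuron at 200 mg per kg body weight a day for 4 weeks and the control group had the corn oil vehicle for 4 weeks, with 3 biological replicates in each group. Each replicate was 1 single-colour Agilent array. Every level below is the log2 of the probe's processed signal minus the log2 of that array's 75th percentile, so 0 means a signal equal to the 75th percentile and a difference of 1 means a doubling. Levels of different probes depend on how each probe hybridises, so genes were not ranked by level.

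Fhit encodes a dinucleoside triphosphate hydrolase of the histidine triad family, and Wwox a short-chain dehydrogenase-like protein with WW domains. Both human genes lie across common fragile sites, stretches of very large genes that break under replication stress and are often deleted in carcinomas. Vhl encodes the substrate receptor of a ubiquitin ligase that marks hypoxia-inducible factors for destruction. Tsc1 and Tsc2 form the complex that keeps the small GTPase Rheb, and through it mTOR, in check. Flcn encodes folliculin, which acts on Rag GTPases at the lysosome and governs the transcription factors TFEB and TFE3. Met is the receptor tyrosine kinase for hepatocyte growth factor. Inherited loss of VHL, TSC1, TSC2 or FLCN, or an activating change in MET, predisposes people to kidney tumours, and the Eker rat carries an inherited Tsc2 mutation with the same outcome.

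The stretches just upstream of the RefSeq transcription starts of Fhit and Wwox are shown because these were the members with the lowest differences, monuron minus corn oil. They are the 250 bases before the start in the rat assembly GRCr8, on the plus strand, at chr15:16398002-16398251 for Fhit and chr19:59341134-59341383 for Wwox. Capitals mark matches on either strand to ACGTG (the core of hypoxia response elements), GCGTG (the core bound by the aryl hydrocarbon receptor with its partner), TGACNNNGC (the core of antioxidant response elements) or GGGCGG (the GC box).
Fhit upstream: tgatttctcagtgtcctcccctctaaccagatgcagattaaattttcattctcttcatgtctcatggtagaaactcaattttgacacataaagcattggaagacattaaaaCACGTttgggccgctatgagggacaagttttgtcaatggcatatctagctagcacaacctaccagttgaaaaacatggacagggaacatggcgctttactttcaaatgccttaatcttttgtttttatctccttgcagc
Wwox upstream: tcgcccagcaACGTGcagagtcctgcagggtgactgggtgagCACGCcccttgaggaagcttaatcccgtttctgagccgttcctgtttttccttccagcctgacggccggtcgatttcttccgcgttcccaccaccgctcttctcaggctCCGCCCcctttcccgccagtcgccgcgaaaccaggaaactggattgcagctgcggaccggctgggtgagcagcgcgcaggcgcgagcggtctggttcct
The Fhit stretch held 1 ACGTG match and no match to the other 3 motifs. The Wwox stretch held 1 ACGTG, 1 GCGTG and 1 GGGCGG match. Among 33469 RefSeq stretches of this length, 16.6% held ACGTG, 25.9% GCGTG, 10.1% TGACNNNGC and 30.5% GGGCGG. The bases G and C made up 39.6% of the Fhit stretch and 63.6% of the Wwox stretch, against a median of 51.2% over all stretches. The start used for Fhit lies 32851 bases inside the edge of the annotated gene and that for Wwox 2982 bases inside it, so other transcripts may begin further upstream. Binding at these motifs was not tested.

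Fhit was lower with monuron on both of its probes. The probe used for the gene (A_64_P012759) read 1.28, 1.85 and 1.45 on the 3 corn oil arrays and 0.35, -0.14 and -0.048 on the 3 monuron arrays. The groups did not overlap: the lowest corn oil array stood 0.93 above the highest monuron array, which was monuron replicate 1. The means were 1.53 ± 0.29 with corn oil and 0.054 ± 0.26 with monuron (SD, n = 3 each), a difference of -1.47 ± 0.20 (SE), or a 2.78-fold lower signal (95% interval 1.99 to 3.87). On the linear scale the same probe went from 2.92 ± 0.61 to 1.05 ± 0.20 times the 75th percentile (SD, n = 3 each).

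The second Fhit probe (A_44_P331276) read 0.83, 0.97 and 0.54 with corn oil and -0.41, -0.72 and -0.57 with monuron. Here too every monuron array lay below every corn oil array, with a gap of 0.96. The difference was -1.35 ± 0.14 (SE), a 2.55-fold lower signal (95% interval 2.01 to 3.23), and it differed from that of the first probe by 0.12. Both probes carry the same RefSeq accession and read the same RNA extracts, so they are not separate replicates. Of the 12069 tested genes with a symbol, 27 had a lower log2 fold change than Fhit.

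Wwox was also lower with monuron, by a smaller amount. Its brighter probe (A_64_P028011) read -1.94, -2.02 and -2.06 with corn oil and -2.39, -2.68 and -2.47 with monuron. The corn oil arrays lay within a narrow band and all 3 monuron arrays lay below it, by at least 0.33. The difference of -0.50 ± 0.094 (SE) is a 1.42-fold lower signal (95% interval 1.21 to 1.67). The dimmer Wwox probe (A_44_P513546) read -3.03, -2.84 and -2.91 with corn oil and -3.41, -3.77 and -3.01 with monuron. On it monuron replicate 3 lay above corn oil replicate 1, so the groups overlapped, and the difference of -0.47 ± 0.19 (SE) had a 95% interval of -0.94 to 0.0061. A log2 fold change lower than that of Wwox was found for 358 of the 12069 genes.

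**Figure D1:**
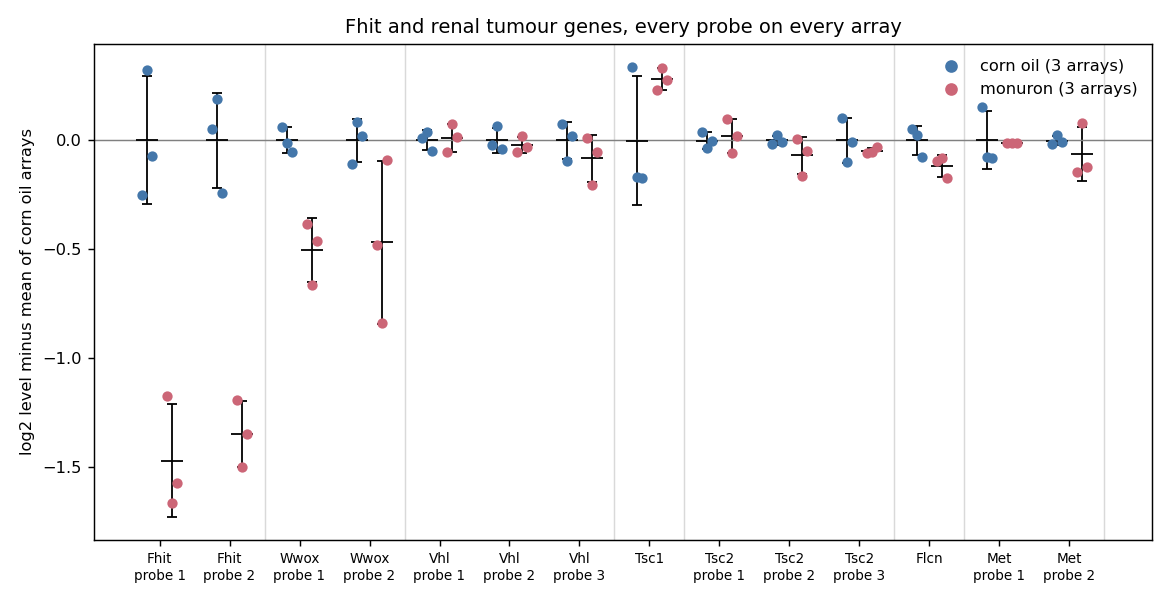
Every probe of the 7 genes on each of the 6 arrays, as its log2 level minus the mean of its 3 corn oil arrays (vertical axis, log2 units); points are arrays, horizontal bars are group means and error bars are SDs (n = 3). The monuron arrays lie far below the corn oil arrays on both Fhit probes and below them on the first Wwox probe; on the second Wwox probe the groups overlap, and the other genes stay within 0.5 of their corn oil mean.

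Vhl, the ubiquitin ligase receptor, had nearly the same level in both groups. Its brightest probe (A_64_P005749) read 3.98, 4.01 and 3.92 with corn oil and 3.92, 4.04 and 3.99 with monuron. The groups overlapped fully, and the difference was 0.012 ± 0.068 (SE; 95% interval -0.15 to 0.18). The other Vhl probes differed by -0.022 ± 0.065 and -0.083 ± 0.087 (SE).

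Of the pair that restrains mTOR, Tsc2 had much the same level in both groups and Tsc1 was close to background on its probe. Tsc2 (A_64_P024252) read 2.67, 2.59 and 2.63 with corn oil and 2.73, 2.57 and 2.65 with monuron, a difference of 0.022 ± 0.070 (SE; 95% interval -0.15 to 0.19). Its other probes differed by -0.069 ± 0.070 and -0.048 ± 0.075 (SE), and the groups overlapped on all 3. The single Tsc1 probe (A_44_P506039) read -4.56, -5.06 and -5.07 with corn oil and -4.67, -4.56 and -4.62 with monuron. The scanner software marked it well above background on all 3 monuron arrays but, among the controls, on only 2 of 3, and corn oil replicate 1 lay above every monuron array. The Tsc1 difference of 0.28 ± 0.15 (SE) had a 95% interval of -0.095 to 0.66, the widest of the tested probes of these 5 genes. It was 0.45 without corn oil replicate 1 and -0.0094 with normexp.

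Flcn, the folliculin gene, read 3.91, 3.87 and 3.77 with corn oil and 3.76, 3.77 and 3.68 with monuron on its single probe (A_44_P344077). All 3 monuron values lay below the corn oil values, but the gap was 0.0064 and the difference of -0.12 ± 0.069 (SE) had a 95% interval of -0.29 to 0.052. Met, the growth factor receptor, read -1.98, -2.21 and -2.22 with corn oil and -2.15, -2.15 and -2.15 with monuron on its brighter probe (A_64_P132487). The monuron arrays lay inside the corn oil range, with a difference of -0.012 ± 0.085 (SE; 95% interval -0.22 to 0.20). The second Met probe differed by -0.063 ± 0.083 (SE; 95% interval -0.27 to 0.14). With the scaling used for these levels, the intervals of the tested Vhl, Tsc2, Flcn and Met probes leave out a change of 0.5 in either direction. That of Tsc1 does not. With scaling on the spike-in controls instead, the Vhl, Tsc2, Flcn and Met differences were -0.49, -0.48, -0.62 and -0.52. That scaling moved the median of all genes to -0.48. The intervals therefore limit a change relative to the rest of the array, and not a change shared by most genes.

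All 14 probes passed the filter on low signal, which kept a probe if the scanner software marked it well above background on every array of one group or the other. In the fit across the whole array, 411 of 30213 genes (1.36%) were called at an adjusted p under 0.05 by limma with Benjamini-Hochberg adjustment, 287 higher (0.95%) and 124 lower (0.41%) with monuron. Of the 7 genes, Fhit was called lower and none was called in the other direction; since Fhit was chosen on this contrast, nothing is read from that count. The groups did not overlap, with monuron lower, on 4 of the 14 probes (2 of Fhit, 1 of Wwox and that of Flcn), and with monuron higher on none. Over all tested genes such separation occurred for 25.7%, 10.3% with monuron lower and 15.5% with it higher. The median log2 fold change was -0.012 over the 7 genes and 0.024 over all tested genes, whose 1st and 99th percentiles were -0.83 and 1.28.

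Across the 6 arrays 60.9% to 70.4% of probes were well above background, the 75th percentile was 825 to 922 signal units and no member probe was saturated. The arrays lay on 2 slides and no slide held both groups, so the slide, like the day of scanning, cannot be told apart from treatment in any value given here. In bulk tissue, fewer cells of a type and less RNA per cell cannot be told apart either. The summed linear signal of 8 proximal tubule markers, the main cell type of the cortex, was 1405 to 1525 times the 75th percentile with corn oil and 1225 to 1316 with monuron. All 8 had a log2 fold change below 0, from -0.69 (Cubn) to -0.035 (Ggt1). None passed the test (Lrp2, the endocytic receptor megalin, -0.52 ± 0.095 SE, limma adjusted p = 0.0761). With a trended, robust variance in limma 2 of the 8 were called lower, against 275 of all 30213 tested genes. Sums for loop, distal tubule and collecting duct markers overlapped between the groups (419.5 to 561.1 and 396.3 to 587.6), as did those of the 3 measured of 6 leukocyte markers and of endothelial and stromal markers. Red cell markers (5 of 6 measured) summed to 488 to 670 with corn oil and 1091 to 1143 with monuron, and 6 of 7 markers of dividing cells to 1.69 to 1.83 and 4.02 to 4.63. Podocyte markers summed to 30.9 to 37.8 and 28.9 to 29.7. Hepatocyte markers, which should be faint in kidney, summed to 11.9 to 29.8 with corn oil and 19.2 to 53.8 with monuron. None of the 9 reached the threshold, and Alb, the albumin gene, read 0.41, 0.12 and 2.67 with corn oil and 3.93, 2.12 and 2.04 with monuron. The part of these shifts in the Fhit and Wwox values was not tested, except that with the mean of the hepatocyte markers as a covariate the Fhit difference was -1.52 and the Wwox difference -0.52.

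The 2 genes with the lowest differences are also by far the longest of the 7. In RefSeq's annotation of GRCr8 Fhit spans 1508 kb and Wwox 931 kb, against 107219 bases for Met, 49 kb for Tsc1, 35 kb for Tsc2, 19 kb for Flcn and 7 kb for Vhl. Among the tested genes with a symbol 8 are longer than Fhit and 28 longer than Wwox. None of the 8 longer than Fhit was called lower. Csmd1, near background with corn oil, differed by 2.34, and the others by -0.25 (Dmd) to -0.047 (Pde4d). Gene length was examined after the values of the 7 genes had been seen, so the length classes below are a description and carry no test. The 7 genes themselves were left out of these classes.

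Genes of 500 kb or more were lower with monuron more often than shorter genes. Of the 96 such genes, 65 (67.7%) had a log2 fold change below 0, against 46.7% of 11966 shorter genes. The test called 9 of the 96 lower (9.38%) and 3 higher (3.12%), whereas among the shorter genes it called 49 lower (0.409%) and 137 higher (1.14%). Among the long genes called higher, Csmd1 and Sgcz passed the filter through monuron alone. The count of long genes called lower was 1 of 96 with the hepatocyte marker mean as a covariate, with none higher, and 2 of 161 with no filter. Of the shorter genes, 3 of 11966 and 3 of 15471 were called lower in those settings, in the same order. The median log2 fold change was -0.16 for the long genes and 0.015 for the shorter ones.

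The shift was seen from 100 kb upward. The median log2 fold change was 0.023 for 3571 genes under 10 kb, 0.025 for 5569 genes of 10 to 50 kb, 0.0044 for 1568 genes of 50 to 100 kb and -0.057 for 1258 genes of 100 to 500 kb. The share called lower was 0.196%, 0.198%, 0.255% and 2.15% in the same order, and the share with all monuron arrays below all corn oil arrays was 10.9%, 11.0%, 10.1% and 21.0%, against 28.1% at 500 kb or more. The genes were also split by the brightness of their probe, since dim spots are measured with less precision. Among genes with a probe brighter than the 75th percentile, 16 of the 22 long genes (72.7%) lay below 0 and 5 were called lower (22.7%), against 0.495% of 6265 shorter genes. Among genes with a dimmer probe, 49 of 74 long genes (66.2%) lay below 0 and 4 were called lower (5.41%), against 0.316% of 5701.

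Array by array, the median centred level of the long genes minus that of the shorter genes was 0.084, 0.052 and 0.099 with corn oil and -0.036, -0.13 and -0.10 with monuron. The sign differed between the groups on all 6 arrays. The group means were 0.078 ± 0.024 and -0.089 ± 0.047 (SD, n = 3 each).

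**Figure D2:**
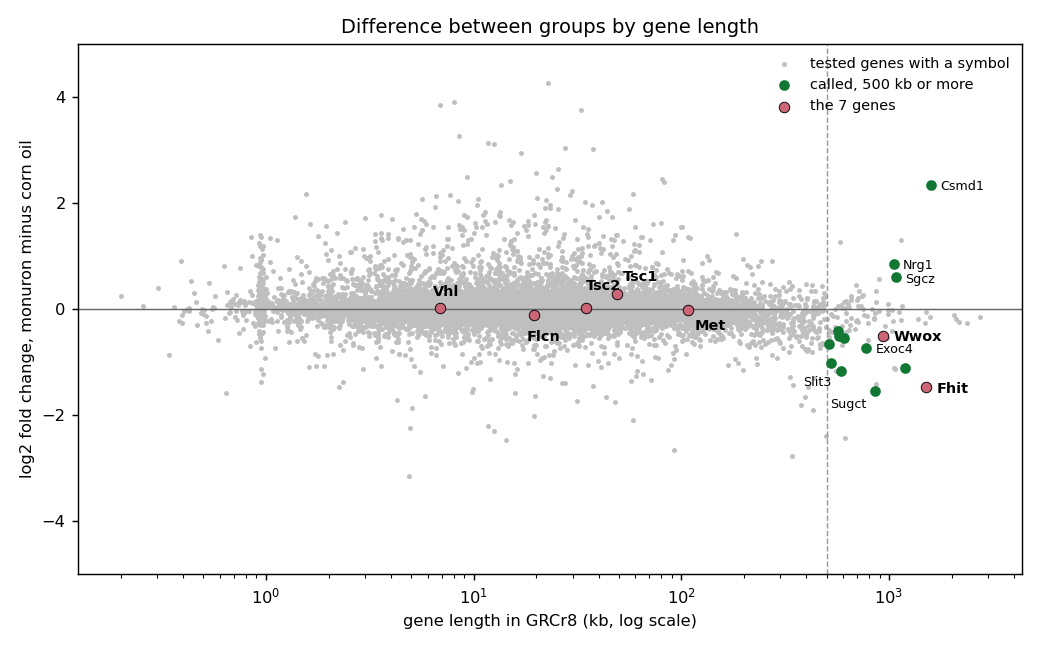
Difference between the groups (vertical axis, log2 fold change, monuron minus corn oil) against gene length in GRCr8 (horizontal axis, kb, log scale) for 12069 tested genes with a symbol; the dashed line marks 500 kb, green points are genes of at least that length called by limma and red points are the 7 genes. Fhit and Wwox lie at the long end, where genes such as Sugct, Slit3 and Exoc4 were called lower and Csmd1, Nrg1 and Sgcz higher. Vhl, Flcn, Tsc1, Tsc2 and Met lie near 0.

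**Figure D3:**
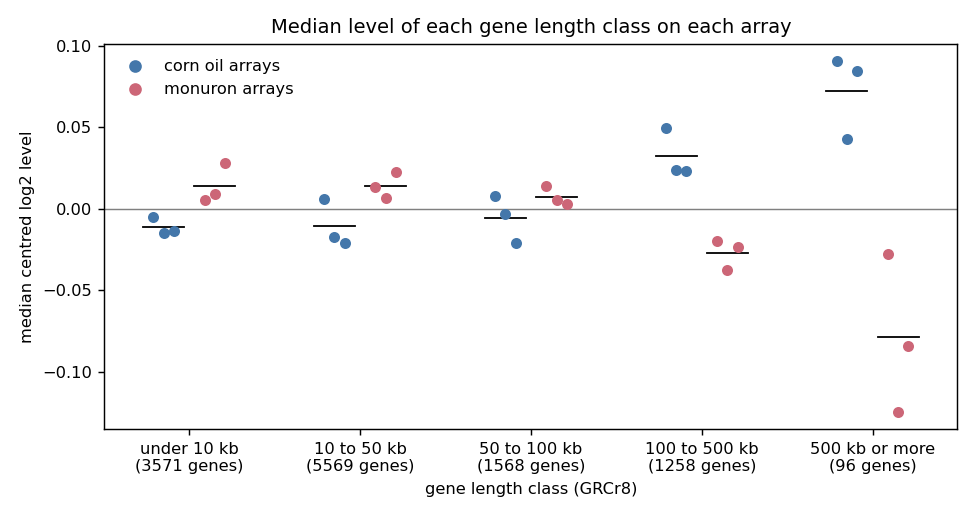
Median centred log2 level of each gene length class (vertical axis) on each of the 6 arrays, with the number of genes per class; points are arrays and bars group means, and the 7 genes are left out. At 500 kb or more all 3 corn oil arrays lie above 0 and all 3 monuron arrays below it.

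The long genes called lower with monuron had varied roles. Of these 9, the gene with the largest fall was Sugct, a mitochondrial CoA transferase of 858 kb, at 2.93-fold lower (limma adjusted p = 0.0084), and Slit3, a secreted guidance protein of 585 kb, followed at 2.25-fold lower (adjusted p = 0.036). Fgf13, Exoc4 (a subunit of the exocyst), St6galnac3 (a sialyltransferase), Magi1 (a junction scaffold), Vps13b and Cpq fell by 1.02, 0.73, 0.67, 0.55, 0.51 and 0.42 on the log2 scale, with limma adjusted p from 0.012 to 0.0475. Nrg1, the growth factor neuregulin, rose (log2 fold change 0.86, limma adjusted p = 0.0343). The other genes called higher were Csmd1 and Sgcz, a sarcoglycan, which entered the test through the monuron arrays alone; with detection required on all 6 arrays 1 long gene was called higher. These calls rested on all 6 arrays: without any 1 array, 1 to 3 long genes were called lower, and 2 to 10 shorter genes.

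The genes whose profile over the 6 arrays lay nearest to that of Fhit were found by the root mean square difference of the centred log2 levels, over 12062 genes outside the 7. Among the nearest 5 were Sugct (0.147 log2 units), Usp18 (0.19, a protease of the ubiquitin-like modifier ISG15), Prima1 (0.28, the membrane anchor of acetylcholinesterase) and Gfra1 (0.28, a receptor of the GDNF family). Sugct read 2.58, 2.70 and 2.64 with corn oil and 1.31, 0.96 and 1.00 with monuron. As for Fhit, monuron replicate 1 was the highest of its group. Such likeness is what the measure selects for, so nothing is read from it. Wwox stood 0.53 from Fhit by the same measure.

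The genes beside Fhit and Wwox on their chromosomes were read by their order in RefSeq. Of the 3 protein-coding genes on each side of Fhit, 4 were tested and none passed the test, with log2 fold changes from -0.42 to 0.15. Ptprg, a receptor tyrosine phosphatase gene of 684 kb and the second gene before Fhit, read -1.27 on average with corn oil and -1.65 with monuron, a difference of -0.38 ± 0.094 (SE; limma adjusted p = 0.128). Beside Wwox 3 of 6 such genes were tested, with log2 fold changes from -0.17 to 0.51 and none past the threshold. Maf, a transcription factor and the first gene after Wwox, differed by -0.13 ± 0.15 (SE; limma adjusted p = 0.681).

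The partners, regulators and targets of the 7 genes were taken from 9 lists holding 176 genes, of which 139 were tested. In all, 2 were called higher and 1 lower, against 0.95% and 0.41% of all tested genes, and 65 of the 139 lay below 0. The 2 called higher, Csmd1 and Sgcz, passed the filter through monuron alone, so nothing is read from their count. With detection required on all 6 arrays 0 were called higher. The median log2 fold change of the 139 genes was 0.012. All 3 calls were in the list of long genes that span human fragile sites, so none of the other 8 lists had a called gene. In those 8 lists 12 entries were higher and 10 lower at an unadjusted p under 0.05, of 130 tested, against 10.9% and 6.74% of all tested genes. With a trended, robust variance in limma 1 gene of those 8 lists, in the list of other renal tumour genes, was called higher and 0 lower. Over all 30213 genes that fit called 431 higher and 275 lower. Genes named below with an adjusted p are the called genes of a list or, where none was called, the pair with the smallest p. Csmd1, Sgcz and Hk2 come from that rule too but get no p, having passed the filter through monuron alone. Other genes given by a difference alone were chosen after their values were seen.

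The histidine triad relatives of Fhit and other enzymes of dinucleoside polyphosphates stayed close to their control level. Of 12 genes 10 were tested, with a median of -0.044 and a range of -0.11 to 0.20. Hint2, a mitochondrial histidine triad hydrolase, differed by -0.11 ± 0.058 (SE; limma adjusted p = 0.392) and Dcps, the scavenger decapping enzyme, by 0.20 ± 0.13 (adjusted p = 0.473). The Fhit difference lay outside the range of its tested family members, but Fhit was picked for its low value, so nothing is read from that.

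Of 22 genes that span fragile sites in human, 9 were tested, 4 had no probe past the filter and 9 were not matched to a probe here. Their median was -0.25 and 7 of the 9 lay below 0. Csmd1, a very large membrane protein with complement control domains, read -5.47, -5.42 and -5.55 with corn oil and -2.87, -3.61 and -2.94 with monuron. The Csmd1 difference was 2.34, and 1.00 with normexp background correction. Sgcz differed by 0.60, and by 0.18 with normexp, 0.33 with a floor on low values and 0.097 with spike-in scaling. Both genes cleared the background mark on all 3 monuron arrays but, among the controls, on 1 of 3. They passed the filter through monuron alone and their control level is near background, so no fold or p is given for them, and with detection required on all 6 arrays neither was tested. The Csmd1 call was lost in 7 of 18 alternative settings, among them those without corn oil replicate 1, 2 or 3 or monuron replicate 1 or 3, and the Sgcz call in 15 of 18. Dpyd, which encodes the enzyme that starts pyrimidine breakdown, read -3.39, -3.96 and -3.63 with corn oil and -4.67, -5.69 and -4.85 with monuron. The Dpyd groups did not overlap, but the difference of -1.41 ± 0.30 (SE) did not pass the test. Lpp, Magi2 and Dmd differed by -0.40, -0.27 and -0.25.

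Proteins that bind WWOX gave no call among 11 tested of 13 listed, with a median of -0.025. Erbb4, a receptor tyrosine kinase gene of 1072 kb, differed by -1.12 ± 0.26 (SE; limma adjusted p = 0.113), or -0.47 with normexp. Itch, a ubiquitin ligase, differed by 0.20 ± 0.068 (adjusted p = 0.221), or -0.30 with scaling on the spike-in controls.

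The VHL complex, the hypoxia-inducible factors and their hydroxylases showed no call among 10 tested of 12, with a median of 0.045. The elongins Elob and Eloc, which bind VHL, differed by 0.078 and -0.014, and the factor subunits Hif1a and Epas1 by 0.012 and -0.11. Egln2, a prolyl hydroxylase, differed by -0.19 ± 0.057 (SE; limma adjusted p = 0.186) and Rbx1, the ring protein of the ligase, by 0.17 ± 0.067 (adjusted p = 0.276), or -0.33 with spike-in scaling. Of 22 targets of the factors 20 were tested, none was called and 19 stayed within 0.5 of 0, with a median of 0.032. Vegfa, the vascular growth factor, differed by -0.027 and Slc2a1, a glucose transporter, by 0.19. The lowest p in that list belonged to Ankrd37 (-0.33 ± 0.073 SE, limma adjusted p = 0.109), followed by Hk2, a hexokinase (0.87 ± 0.31 SE). Hk2 was above background on 2 of the 3 control arrays and passed the filter through monuron alone, so no p is given for it. Its difference was 0.51 without corn oil replicate 2, 0.41 with a floor on low values, 0.56 with the hepatocyte covariate and 0.24 with normexp.

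Genes around the TSC complex and mTOR had no call among 24 tested of 27, with a median of -0.020. Tbc1d7, the third subunit of the TSC complex, differed by 0.039, its substrate Rheb by 0.049 and Mtor by 0.012. Pik3ca, a catalytic subunit of phosphoinositide kinase, differed by 0.29 ± 0.077 (SE; limma adjusted p = 0.154), with probes from -0.075 to 0.35 and a value of -0.22 with spike-in scaling. Akt2, a kinase upstream of TSC2, differed by -0.37 ± 0.13 (adjusted p = 0.229). Ddit4, a stress-induced inhibitor of mTOR, read 2.34, 2.73 and 1.88 with corn oil and 1.13, 2.28 and 1.00 with monuron, so monuron replicate 2 lay within the corn oil range. Prkaa1, a subunit of the AMP-activated kinase, differed by -1.06 ± 0.94 (SE), and this rested on corn oil replicate 3 at 0.81 while the other 5 arrays read between -2.40 and -2.64.

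Partners of folliculin and genes of the TFEB programme had no call among 21 tested of 22, with a median of -0.018. The folliculin partners Fnip1 and Fnip2 differed by 0.076 and -0.15, and the transcription factors Tfeb and Tfe3 by -0.095 and 0.098. Sqstm1, an autophagy receptor, differed by 0.39 ± 0.10 (SE; limma adjusted p = 0.142), with probes from -0.20 to 0.39 and -0.11 with spike-in scaling. Lamp1, a lysosomal membrane protein, differed by -0.43 ± 0.12 (adjusted p = 0.166). Gpnmb, a glycoprotein induced by TFEB and TFE3, read -3.93, -2.93 and -2.61 with corn oil and -2.20, -2.14 and -2.31 with monuron. The Gpnmb groups did not overlap, but the difference of 0.94 ± 0.34 (SE) did not pass the test.

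The MET pathway had no call among 13 tested of 17, with a median of 0.089 and 10 genes above 0 (scaling on the spike-in controls moves the median of all genes to -0.48 and turns small positive differences such as these). The ligand Hgf differed by 0.16 ± 0.15 (SE) and its activating protease Hgfac by 0.40. Spint1, an inhibitor of that activation, differed by 0.21 ± 0.061 (SE; limma adjusted p = 0.173) and Ptpn11, a phosphatase that relays the receptor's signal, by 0.19 ± 0.065 (adjusted p = 0.220); with spike-in scaling they were -0.29 and -0.31.

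Other genes of renal tumours had no call among 21 tested of 29, with a median of 0.039. Myc, the growth-promoting transcription factor, was 1.97-fold higher at a difference of 0.98 ± 0.19 (SE; limma adjusted p = 0.0858, 0.0318 to 0.226 over 19 alternative settings). Wt1, a regulator of kidney development, differed by -0.22 ± 0.083 (adjusted p = 0.258). Fh, the fumarate hydratase gene, differed by -0.0032, and Msln, a marker of the renal tumours of the Eker rat, had no probe past the filter.

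**Figure D4:**
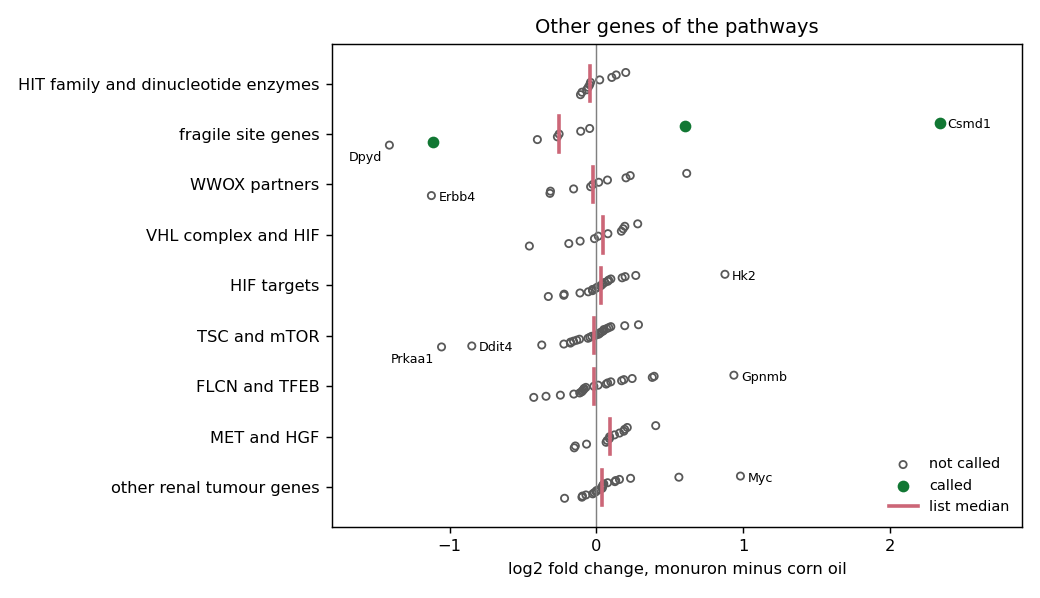
Log2 fold change (horizontal axis, monuron minus corn oil) of each tested gene in the 9 lists; filled points were called by limma at an adjusted p under 0.05, open points were not, and vertical bars mark list medians. The 3 called genes all lie in the fragile site list, and most other genes lie within 0.5 of 0.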

How the data were processed

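RNA from 3 corn oil and 3 monuron rats was measured on 1-colour Agilent arrays. Per the file headers, Feature Extraction 10.7 made the processed signal, an intensity that is already background-corrected. The authors' deposited table holds a linear ratio, equal within 0.0497% to the processed signal over 1 constant per array, with column medians of 0.108 to 0.112. Levels are log2 of the deposited processed signal, with the 75th percentile of each array set to 0. The array design's accessions named 28206 probes (45.8%) through RefSeq (GRCr8). Of 41125 probes past the filter, 27 with a spot marked as an outlier were left out; the brightest probe stood for each gene name. The comparison used limma 3.58.1 (R 4.3.3) and Benjamini-Hochberg adjustment over 30213 genes, and the script was tested on simulated data. Standard errors and 95% intervals come from that fit.

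The 7 genes, the lists and the tests were chosen with earlier results of these data known. The genes named are every member, the called genes of each list (otherwise the 2 with the smallest p), Csmd1 and Msln, the 5 genes nearest to Fhit, and Alb and Lrp2; 1 gene that this rule picks is not reported here. Long genes, neighbours and others were added after their values were seen. Alternatives changed the scaling, background correction, filter, probe choice, variance model and covariates, left out each array, and used the median spot signal for normexp (offset 50). The number of arrays limits the precision. With 3 replicates a group, no Dixon test for a stray sample was made.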

Additional observations from a re-analysis of the deposited data

How the results depend on the processing

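The Fhit difference stayed below 0 in all 19 alternative settings, from -1.98 with scaling on spike-in controls to -1.31, and from -1.62 to -1.31 when 1 array was left out. Spike-in scaling moved the median of all genes from 0.024 to -0.48 and called 20631 genes lower; relative to that median Fhit stood at -1.50, as in the reported fit. It called 115 pathway genes lower. Most small positive differences turned with it: among the named genes Dcps went to -0.30, Itch to -0.30, Rbx1 to -0.33, Pik3ca to -0.22, Sqstm1 to -0.11, Spint1 to -0.29 and Ptpn11 to -0.31. These turns follow from the shift of all genes. Counts of calls moved more than the values did, and unless stated the cause was not tested. Genes called higher and lower were 375 and 61 with no scaling, 449 and 319 with normexp, 67 and 19 with no filter, 431 and 275 with a trended, robust variance, and 98 and 15 with the hepatocyte covariate. The share of calls that were higher was 69.8% as reported, 86.0% with no scaling, 58.5% with normexp and 1.45% with spike-in scaling. Without 1 array, 25 to 111 genes were higher and 5 to 27 lower. Pathway genes called higher went from 2 to 1 with quantile normalization, no scaling, no filter or a floor, and to 0 with detection on all 6 arrays or the hepatocyte covariate; those called lower went from 1 to 0 when a gene's probes were averaged or with the hepatocyte covariate. Without 1 array, both counts were 0 to 1. With the replicate number as a block limma called 0 genes higher and 0 lower (4560 at an unadjusted p under 0.05). In that setting 0 pathway genes were called in either direction, while the Fhit difference stayed -1.47. Same-numbered arrays correlated at -0.08, 0.106 and -0.165 in their deviations, and arrays of different number at -0.135 to 0.224. With 3 arrays a group these values cannot show whether the replicate number pairs animals. The difference between the medians of genes of 500 kb or more and shorter genes was -0.18. It was -0.11 with normexp, -0.23 with no filter, -0.12 at a limit of 700 kb (51 genes), -0.24 among genes above the 75th percentile, and -0.18 to -0.13 without 1 array, moving most without corn oil replicate 3. Of the other members, Wwox stayed between -1.01 and -0.36, while Vhl, Tsc2, Flcn and Met came to between -0.62 and -0.48 and Tsc1 to -0.22 with spike-in scaling. Of 19 named pathway genes, spike-in scaling moved 16 by over 1.5 times, normexp 9, averaging of probes 5 and no scaling 4. The floor, the hepatocyte covariate or leaving out corn oil replicate 2 moved 2 each. Signal over background limits Hk2, Tsc1, Csmd1 and Sgcz, which were near background with corn oil.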
